A study of Mus musculus with 20 samples.

Results

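AP-1 is a family of paired transcription factors, and 10 genes of this family and of the immediate early response were followed here through 20 RNA-seq libraries of whole mouse nerve tumors. The members were chosen by name: the FOS genes Fos, Fosb, Fosl1 and Fosl2, the JUN genes Jun, Junb and Jund, the zinc finger genes Egr1 and Egr3, and the stress-induced factor Atf3. All 10 were among the 24062 genes of the deposited count table, and all 10 passed the filter on low counts, which 17258 genes passed. The libraries comprised 12 of neurofibroma, from mice labelled Nf1fl/fl; DhhCre, and 8 of tumors from mice labelled Ink4a/Arf+/-; Nf1fl/fl; DhhCre. The latter were 4 paraspinal tumors, of which 2 were labelled sub-cluster 1 and 2 sub-cluster 2 (subgroups 1 and 2 below), and 4 GEM-PNST, the peripheral nerve sheath tumors of this genetically engineered mouse. All mice were C57BL/6J, carried the floxed Nf1 alleles with DhhCre, a Cre driver active in the Schwann cell lineage, and received no drug. No age is used here, and whether libraries stem from separate animals is not labelled, so p-values measure the spread between these libraries, which may be technical.

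FOS and JUN proteins bind DNA as pairs through a leucine zipper, JUN proteins with each other or with a FOS protein, and FOS proteins only with a partner. Most of these genes are switched on within minutes of growth factor, cytokine or stress signals, through the ERK, JNK and p38 kinases acting on factors already present, and most of their transcripts are lost again quickly. In nerve, Jun is known as a driver of the repair state that Schwann cells enter after injury, Egr1 and Egr3 belong to the family of the myelination factor Egr2, and Atf3 is a marker of injured neurons and Schwann cells. The same genes are also known to respond to dissection and handling of tissue. The labels give no time from dissection to lysis, so a part of handling in the levels below was not tested.

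The promoters of members that were higher in the later tumors are shown first, because Fos, Fosb, Jun and Junb are all known as rapidly induced genes and yet did not change by the same amounts. A promoter window from 250 bases before to 50 bases after the transcription start was used for 7 of the 10 members, from RefSeq (build GRCm38.p6). For Jund, Atf3 and Fosl2 the start RefSeq uses lies well away from the outer start of the GENCODE gene given below, so those windows describe another start. Printed are the 120 bases before the start of Fos (chr12:85473770-85473889, plus strand), Fosb (chr7:19310046-19310165, minus strand), Jun (chr4:95052223-95052342, minus strand) and Junb (chr8:84978749-84978868, minus strand), each read 5′ to 3′ on the strand of its gene. Capitals mark matches to the motifs named after them.
Fos: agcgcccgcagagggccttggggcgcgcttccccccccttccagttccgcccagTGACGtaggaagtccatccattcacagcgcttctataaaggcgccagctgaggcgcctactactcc
Fosb: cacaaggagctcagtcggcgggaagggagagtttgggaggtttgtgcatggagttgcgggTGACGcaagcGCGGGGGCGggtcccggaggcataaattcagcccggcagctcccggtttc
Jun: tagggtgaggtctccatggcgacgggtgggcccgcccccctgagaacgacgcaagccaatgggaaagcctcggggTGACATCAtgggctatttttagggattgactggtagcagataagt
Junb: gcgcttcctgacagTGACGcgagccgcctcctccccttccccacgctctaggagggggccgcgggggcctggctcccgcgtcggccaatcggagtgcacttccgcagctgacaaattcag

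Both strands of the 7 windows were searched. None held the CArG box bound by SRF (in 1.63% of all 32851 promoter windows), the AP-1 site TGANTCA (7.81%) or the full cAMP response element TGACGTCA (1.79%). Egr1, Fosl1 and Egr3 were not searched, nor was sequence farther upstream, so such sites may lie outside these windows. Any member window on chromosome 18, where Egr1 lies, was left out of the search. The EGR site GCGNGGGCG, found in 5.55% of all windows, lay at -50 to -42 from the start in Fosb and at -79 to -71 in Fosl2. TGACG, the 5′ part of the cAMP response element, was added after the sequences were seen and occurs in 20.8% of all windows. It lay in Fos at -129 to -125 and again at -66 to -62, in Fosb at -60 to -56, in Junb at -106 to -102 and, on the other strand, in Atf3 at -7 to -3. TGACATCA, a variant of the AP-1 site that was also added after the sequences were seen, lay in Jun at -45 to -38 and is in 3.62% of all windows. It overlaps none of the other matches. TGACG thus lay in the printed stretches of Fos, Fosb and Junb, and no motif of those searched lay in all 4. Such matches describe letters in these windows and nothing about binding.

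Total counts were 9900759 to 17594164 per neurofibroma library, 18474071 to 24314222 per paraspinal library and 16282605 to 22218382 per GEM-PNST library. Levels are given as CPM, read counts as a rate per library total after TMM scaling over all 20 libraries (edgeR's CPM), and 3 counts correspond to 0.110 to 0.302 CPM. The first part of the alignment file names was taken as the sequencing run. By it, neurofibroma libraries came from 2 runs, and all paraspinal and GEM-PNST libraries shared another. Wherever neurofibroma is compared with a later stage, run, Ink4a/Arf genotype and tumor stage therefore cannot be told apart. Malat1, an abundant nuclear RNA, took 2.52% to 3.578% of counts in neurofibroma, 0.0217% to 0.0874% in paraspinal tumors and 0.0163% to 0.0904% in GEM-PNST. The ribosomal precursor Rn45s took 3.477% to 18.85% of counts in neurofibroma and 0.4411% to 1.841% in paraspinal tumors. It took 30.74% of counts in GEM-PNST library 4 and 0.371% to 0.753% in the other GEM-PNST libraries. Summed levels of 8 Schwann cell markers were 2390 to 10900 CPM in neurofibroma, 6860 to 13900 CPM in paraspinal tumors and 7.05 to 989 CPM in GEM-PNST, where up to 2 of the 8 were at 0. Summed levels of 10 sensory neuron markers were 28.4 to 9980, 3700 to 5180 and 4.03 to 222 CPM in the same order, and 7 macrophage markers reached 44.1 to 638, 246 to 1390 and 1430 to 3950 CPM. In bulk tissue, fewer cells of a type and less RNA per cell cannot be told apart.

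Paraspinal tumors had more RNA than neurofibroma of all 3 JUN genes, of Fos, Fosb and Fosl1, and of Atf3. Fosl2, Egr1 and Egr3 did not pass the test. The increases ranged from 2.52-fold for Jun to 19.6-fold for Fosl1. Thus 7 of 10 members were higher and 0 lower at an adjusted p under 0.05 (edgeR's quasi-likelihood test with Benjamini-Hochberg adjustment over all genes tested), where 58.6% of all genes passed, 29.6% of all genes higher and 29.1% lower. The median log2 fold change was 1.52 over the members and -0.03 over all genes. For 4 members (Fos, Jun, Junb and Jund) every paraspinal library lay above every neurofibroma library, which held for 17.8% of all genes.

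GEM-PNST differed from neurofibroma in Fos, Fosb, Fosl1, Jun, Junb and Jund, which were higher, and in Egr3, which was lower. Fosl2, Egr1 and Atf3 did not pass. These are 6 higher and 1 lower of 10 members, and 72.8% of all genes passed in this comparison, 34.9% of all genes higher and 37.9% lower. The median log2 fold change was 1.61 over the members and -0.15 over all genes. Every GEM-PNST library lay above every neurofibroma library for Fos, Junb and Jund, as for 20.5% of all genes. This comparison and that of paraspinal tumors use the same 12 neurofibroma libraries, so their values are set side by side and not counted as independent.

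Between GEM-PNST and paraspinal tumors, which share genotype and, by file name, sequencing run, Junb was the only member to pass, at 4.48-fold higher in GEM-PNST. In this comparison 10.2% of all genes passed, 2.73% higher and 7.43% lower. The median log2 fold change was 0.30 over the members and 0.03 over all genes. An unadjusted p under 0.05 was reached by 4 members (Fosl1, Junb, Jund and Egr3), against 33.4% of all genes.

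**Figure D1:**
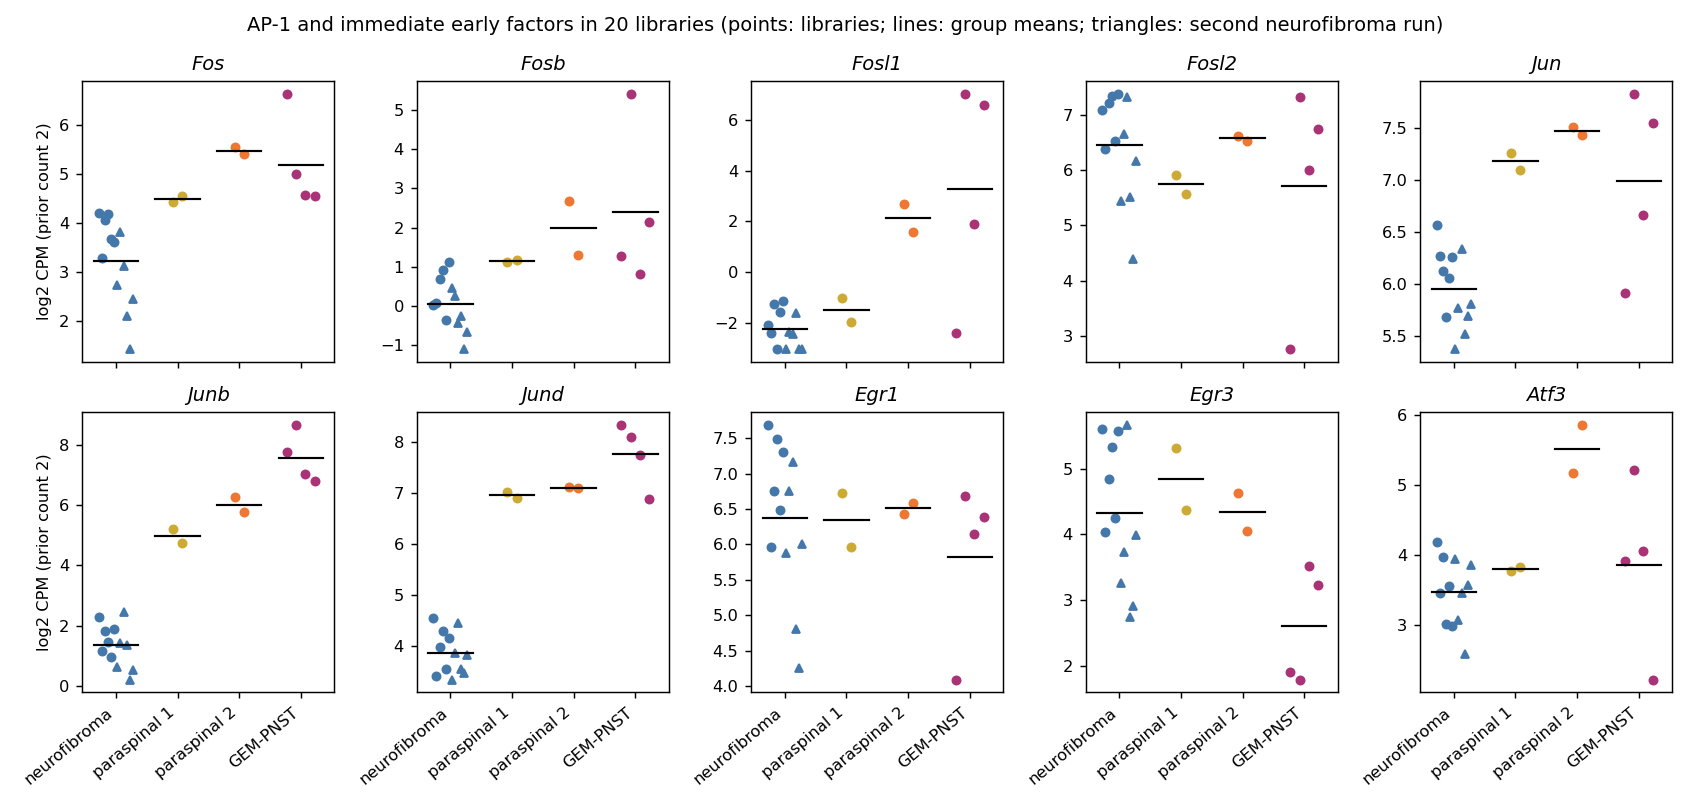
Log2 CPM (prior count 2) of each member in the 20 libraries by group, with points for libraries, triangles for the neurofibroma libraries of the second run and lines for group means. Junb and Jund in paraspinal tumors and GEM-PNST lie above every neurofibroma library, Egr1 stays within the neurofibroma range in every paraspinal library, and Fosl1 in GEM-PNST runs from 0.0672 to 129 CPM.

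**Figure D2:**
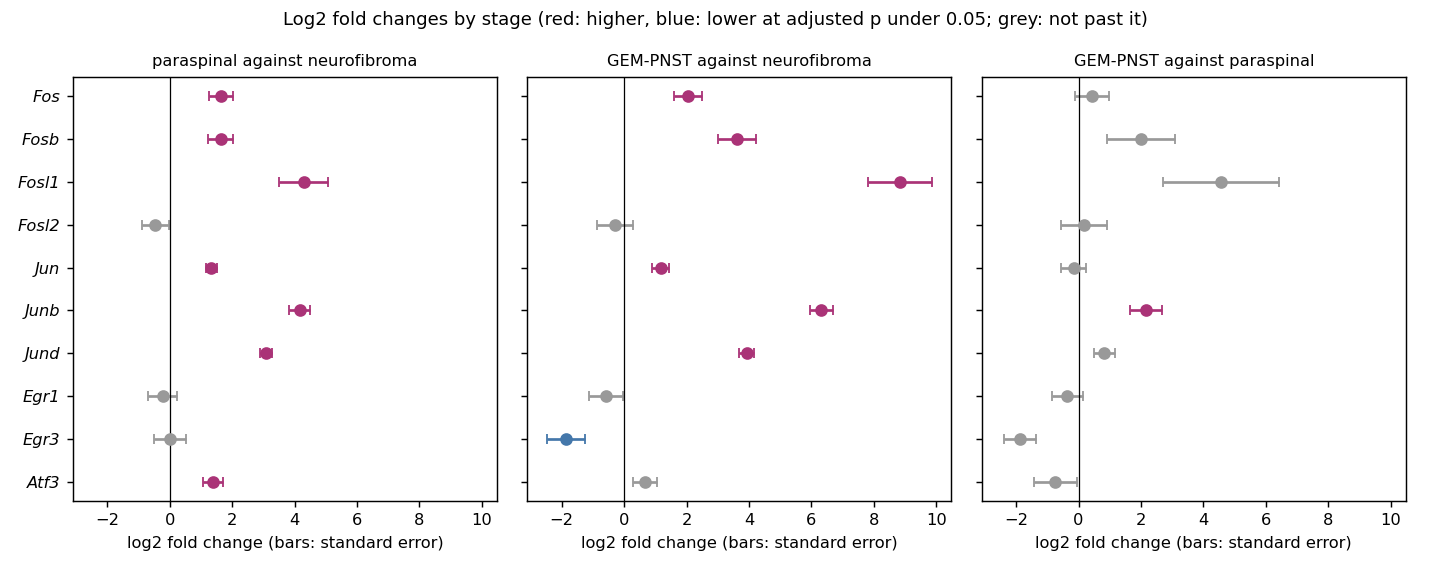
Log2 fold changes (points) with standard errors (bars) of the 10 members in the 3 stage comparisons, red where higher and blue where lower at an adjusted p under 0.05. Junb is the only member past the threshold in all 3 comparisons, and Egr3 the only one past it in the lower direction.

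The JUN genes are single-exon genes that encode the obligate partners of AP-1. Junb (chromosome 8, 84974484 to 84978718, minus strand, GRCm38) encodes a JUN protein known to restrain Jun on some targets. It was measured at 1.03 to 5.33 CPM in neurofibroma with a median of 2.49 CPM. The paraspinal libraries held 37.1 and 26.7 CPM in subgroup 1 and 77.2 and 54.0 CPM in subgroup 2, and the GEM-PNST libraries 220, 410, 132 and 112 CPM. The 3 stages did not overlap: each paraspinal library was above all neurofibroma libraries and below all GEM-PNST libraries. Against neurofibroma the log2 fold change was 4.16 (SE 0.34, adjusted p = 2.27e-08, edgeR) for paraspinal tumors and 6.32 (SE 0.38, adjusted p = 5.82e-10, edgeR) for GEM-PNST. From paraspinal tumors to GEM-PNST it was 2.16 (SE 0.52, adjusted p = 0.0376, edgeR). That last call ended when any of 5 single libraries was left out, at adjusted p = 0.117 and 0.110 without subgroup 1 libraries 1 and 2, 0.0824 without subgroup 2 library 2, and 0.0502 and 0.0524 without GEM-PNST libraries 1 and 2 (edgeR). Prdx2, a peroxiredoxin gene that overlaps Junb on the opposite strand, was at 50.8 to 212 CPM in neurofibroma, 152 to 321 CPM in paraspinal tumors and 283 to 755 CPM in GEM-PNST. Whether the counting used strand is not given in the sources used here, so reads of this pair may be mixed.

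Jund (chromosome 8, 70698949 to 70700616, plus strand) encodes the JUN protein that is usually the most constant of the family. Its levels were 10.1 to 23.5 CPM in neurofibroma with a median of 14.3 CPM. In the paraspinal libraries they were 129 and 119 CPM in subgroup 1 and 138 and 136 CPM in subgroup 2. In GEM-PNST they were 322, 272, 214 and 117 CPM. All paraspinal and GEM-PNST libraries were above all neurofibroma libraries, while GEM-PNST library 4 fell just below the paraspinal range. The log2 fold change was 3.10 (SE 0.19, adjusted p = 1.06e-09, edgeR) for paraspinal tumors and 3.93 (SE 0.24, adjusted p = 6.2e-10, edgeR) for GEM-PNST, each against neurofibroma, and 0.83 (SE 0.33, adjusted p = 0.126, edgeR) between paraspinal tumors and GEM-PNST.

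Jund and Junb are also the members richest in G and C. The exons of Jund are 67.1% G or C, above 99.8% of the genes tested, and those of Junb 62.6%, above 98.7%, where the median gene has 49.7%. A refit that removed the trend of counts with gene length and GC content, chosen after seeing the data, lowered the paraspinal difference from neurofibroma to 0.77 for Jund (adjusted p = 0.014, edgeR) and 2.29 for Junb (adjusted p = 1.09e-05, edgeR). For GEM-PNST against neurofibroma it gave 2.08 for Jund and 4.72 for Junb. Both genes still passed in both comparisons, and the size of the change from neurofibroma depends on this setting.

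Jun (chromosome 4, 95049034 to 95052222, minus strand) encodes c-Jun. It was at 41.4 to 94.6 CPM in neurofibroma with a median of 61.1 CPM, at 153 and 137 CPM in subgroup 1, at 182 and 172 CPM in subgroup 2, and at 60.5, 227, 102 and 187 CPM in GEM-PNST. All paraspinal libraries exceeded all neurofibroma libraries, but GEM-PNST library 1 lay within the neurofibroma range. On the log2 scale the difference was 1.33 (SE 0.18, adjusted p = 7.14e-06, edgeR) in paraspinal tumors and 1.17 (SE 0.27, adjusted p = 0.00084, edgeR) in GEM-PNST, each against neurofibroma. Between paraspinal tumors and GEM-PNST it was -0.16 (SE 0.41, adjusted p = 0.817, edgeR). With the length and GC trend removed, the paraspinal difference was 0.42 (adjusted p = 0.048, edgeR) and that of GEM-PNST 0.36, which did not pass (adjusted p = 0.217, edgeR).

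Among the FOS genes, Fos (chromosome 12, 85473890 to 85477273, plus strand) encodes c-Fos, the classical immediate early partner of JUN. It was at 2.57 to 18.3 CPM in neurofibroma with a median of 10.8 CPM, and at 21.2 and 23.2 CPM in subgroup 1 and 46.4 and 42.0 CPM in subgroup 2. GEM-PNST libraries held 99.0, 31.9, 23.6 and 23.1 CPM, so library 1 stood above the others. No library of the later stages overlapped neurofibroma. The log2 fold change was 1.64 (SE 0.38, adjusted p = 0.00148, edgeR) in paraspinal tumors and 2.05 (SE 0.44, adjusted p = 0.000511, edgeR) in GEM-PNST against neurofibroma. Between the later stages it was 0.42 (SE 0.54, adjusted p = 0.617, edgeR), and it turned to -0.34 without GEM-PNST library 1.

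Fosl1 (chromosome 19, 5447547 to 5455946, plus strand) encodes FRA-1, a FOS protein without the transactivation domain of c-Fos, and it is known as a gene that ERK signaling raises in invasive tumors. It was nearly absent from neurofibroma, at 0 to 0.341 CPM with 4 of the 12 libraries at 0 counts, and from subgroup 1, at 0.373 and 0.133 CPM. Subgroup 2 held 6.28 and 2.89 CPM. In GEM-PNST the levels were 0.0672, 129, 3.56 and 96.2 CPM, so libraries 2 and 4 were high, library 3 was in the range of subgroup 2 and library 1 held a single count. Fitted log2 fold changes were 4.29 (SE 0.79, adjusted p = 0.000173, edgeR) for paraspinal tumors and 8.84 (SE 1.02, adjusted p = 8.36e-07, edgeR) for GEM-PNST, each against neurofibroma. With subgroup 1 alone it was 1.08 and did not pass (adjusted p = 0.380, edgeR). Between paraspinal tumors and GEM-PNST it was 4.56 with an SE of 1.87 and did not pass (adjusted p = 0.129, edgeR). Ccdc85b, which overlaps Fosl1 on the opposite strand, was at 46.7 to 72.6 CPM across GEM-PNST, a range far narrower than that of Fosl1.

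Fosb (chromosome 7, 19302696 to 19310051, minus strand), an immediate early gene best known from neurons, was low in all libraries but GEM-PNST library 2. It was at 0.343 to 2.05 CPM in neurofibroma, 2.03 and 2.12 CPM in subgroup 1, 6.23 and 2.35 CPM in subgroup 2, and 2.28, 42.6, 1.63 and 4.26 CPM in GEM-PNST. GEM-PNST library 2 stood far above the other 3. The log2 fold change against neurofibroma was 1.63 (SE 0.40, adjusted p = 0.00202, edgeR) in paraspinal tumors and 3.63 (SE 0.61, adjusted p = 5.37e-05, edgeR) in GEM-PNST. Without GEM-PNST library 2 the latter was 1.40 (SE 0.44, adjusted p = 0.00988, edgeR). With the length and GC trend removed, the paraspinal difference was 1.01 and did not pass (adjusted p = 0.0589, edgeR).

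Fosl2 (chromosome 5, 32135801 to 32157842, plus strand) encodes FRA-2, which is known in fibroblasts and bone. Unlike the other FOS genes it was already high in neurofibroma, at 20.9 to 167 CPM with a median of 96.1 CPM. It was at 60.2 and 47.5 CPM in subgroup 1, 97.9 and 92.2 CPM in subgroup 2, and 6.72, 159, 63.7 and 108 CPM in GEM-PNST. All paraspinal libraries lay within the neurofibroma range, and only GEM-PNST library 1 lay outside it, on the low side. The log2 fold change was -0.46 (SE 0.43, adjusted p = 0.375, edgeR) in paraspinal tumors and -0.28 (SE 0.58, adjusted p = 0.676, edgeR) in GEM-PNST, each against neurofibroma. Against the 6 neurofibroma libraries of the first run alone, the paraspinal difference was -0.82 and passed (adjusted p = 0.0257, edgeR).

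The EGR genes encode zinc finger factors that bind GC-rich sites and that the NAB corepressors hold in check. Egr1, on chromosome 18, was at 19 to 206 CPM in neurofibroma with a median of 98.5 CPM, 106 and 62.0 CPM in subgroup 1, 86.1 and 96.3 CPM in subgroup 2, and 16.9, 103, 70.8 and 83.0 CPM in GEM-PNST. Only GEM-PNST library 1 fell outside the neurofibroma range, just below it. The log2 fold changes against neurofibroma were -0.22 (SE 0.47, adjusted p = 0.707, edgeR) in paraspinal tumors and -0.58 (SE 0.55, adjusted p = 0.349, edgeR) in GEM-PNST. With the length and GC trend removed they were -1.24 (adjusted p = 0.0491, edgeR) and -1.33 (adjusted p = 0.0358, edgeR), past the threshold in the lower direction.

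Egr3 (chromosome 14, 70077203 to 70082614, plus strand), a gene best known for its role in muscle spindles, was the member that was lower in GEM-PNST. Neurofibroma libraries held 6.55 to 50.9 CPM with a median of 17.7 CPM, subgroup 1 held 39.9 and 20.6 CPM, and subgroup 2 held 24.7 and 16.5 CPM. GEM-PNST libraries held 3.63, 3.34, 11.4 and 9.25 CPM. All 4 were below all paraspinal libraries, as for 16.1% of all genes, and libraries 1 and 2 were below all neurofibroma libraries. Against neurofibroma the log2 fold change was 0.01 (SE 0.50, adjusted p = 0.993, edgeR) in paraspinal tumors and -1.87 (SE 0.61, adjusted p = 0.0116, edgeR) in GEM-PNST. The GEM-PNST call was lost with limma-voom (-1.56, adjusted p = 0.232) and against the second neurofibroma run alone (-1.32, adjusted p = 0.105, edgeR). Against paraspinal tumors it was -1.88 (SE 0.52, adjusted p = 0.0540, edgeR).

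Atf3 (chromosome 1, 191170296 to 191218039, minus strand) encodes a bZIP repressor of the stress response. It was at 5.84 to 18.1 CPM in neurofibroma with a median of 11.2 CPM and at 13.4 and 14.1 CPM in subgroup 1, which lay inside that range. Subgroup 2 held 36 and 57.9 CPM, and GEM-PNST held 14.9, 36.9, 16.5 and 4.5 CPM. The paraspinal difference from neurofibroma was 1.40 (SE 0.32, adjusted p = 0.00128, edgeR), with 2.03 for subgroup 2 alone (adjusted p = 2.99e-05, edgeR) and 0.26 for subgroup 1 alone (adjusted p = 0.550, edgeR). In GEM-PNST against neurofibroma it was 0.67 (SE 0.37, adjusted p = 0.113, edgeR), and without GEM-PNST library 4 it was 0.99 and passed (adjusted p = 0.0105, edgeR).

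Levels per kilobase, with length taken over all exons of a gene, give an approximate order of genes. They were not corrected for GC content, which was highest in Jund and Junb among the members. Egr1 led in neurofibroma at 22.8 CPM per kb, followed by Jun at 20, Fosl2 at 10.6 and Jund at 9.11 CPM per kb. Junb was at 1.17, Fosb at 0.163 and Fosl1 at 0.0562 CPM per kb. In paraspinal tumors the order was led by Jund at 78.3 CPM per kb, then Jun at 50.5, Junb at 21.2 and Egr1 at 19.5 CPM per kb. In GEM-PNST Jund at 139 and Junb at 94.9 CPM per kb stood above Jun at 45.2, Fosl1 at 28.2 and Fos at 18.9 CPM per kb. Across groups, Junb increased in the order neurofibroma, subgroup 1, subgroup 2 and GEM-PNST with no neighbouring groups overlapping, although the step between the subgroups did not pass the test. For Jund the range of GEM-PNST took in both subgroups, and for Egr1 and Fosl2 the ranges of neurofibroma took in both subgroups.

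Ratios of 2 members within a library do not depend on how libraries are scaled, and 12 pairs were compared over 3 stage comparisons, 36 tests in all. An effect of GC content need not cancel in a ratio, and the length and GC trend was not removed here. Jun, Junb and Jund are 55.5%, 62.6% and 67.1% G or C, so the size of their ratio changes may depend on it. An adjusted p under 0.05 (exact permutation test, two-sided) was reached by 6 of 12 pairs for paraspinal tumors against neurofibroma and by 7 of 12 for GEM-PNST against neurofibroma. It was reached by 0 of 12 for GEM-PNST against paraspinal tumors. There the smallest p that 4 against 4 libraries can give is 0.0286, against 0.000549 for 12 against 4. Even pairs without overlap between the later stages had adjusted p = 0.0643 (exact permutation test). This count of 0 therefore cannot show that the ratios were unchanged. Ratios of other genes were not tested, so the counts have no share of all pairs beside them. Against neurofibroma, 58.6% of all genes passed for paraspinal tumors and 72.8% for GEM-PNST. Fosl1 was at 0 to 0.341 CPM in neurofibroma, so its ratios there rest on few counts. The log2 ratio of Jun to Junb was 4.61 ± 0.52 (SD, n = 12) in neurofibroma, 1.83 ± 0.48 (SD, n = 4) in paraspinal tumors and -0.59 ± 1.08 (SD, n = 4) in GEM-PNST. The stages did not overlap, and the exact permutation test gave adjusted p = 0.00198 for each later stage against neurofibroma and 0.0643 between the later stages. In CPM, Junb was below Jun in every neurofibroma and paraspinal library, above it in GEM-PNST libraries 1, 2 and 3, and below it in GEM-PNST library 4. The log2 ratio of Junb to Jund moved from -2.53 ± 0.43 through -1.53 ± 0.57 to -0.18 ± 0.58 (SD) over the same stages.

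The FOS genes also shifted against each other. The log2 ratio of Fos to Fosl2 was -3.23 ± 0.46 in neurofibroma, -1.18 ± 0.21 in paraspinal tumors and -0.53 ± 2.95 in GEM-PNST (SD), and that of Fos to Egr1 was -3.16 ± 0.46, -1.45 ± 0.61 and -0.64 ± 2.12. Both passed for each later stage against neurofibroma (adjusted p = 0.00198, exact permutation test) with no overlap. GEM-PNST library 1, where Fos was high and Fosl2 and Egr1 low, widened the GEM-PNST spread: without it the Fos to Fosl2 difference from paraspinal tumors turned from 0.66 to -0.80. The log2 ratio of Fos to Jun did not pass in any comparison, at -2.74 ± 0.76 in neurofibroma, -2.35 ± 0.42 in paraspinal tumors and -1.81 ± 1.72 in GEM-PNST (SD). Its GEM-PNST libraries ran from -3.01 to 0.71, so a constant ratio is not shown. Neither Fos to Fosb, Fos to Atf3 nor Jun to Atf3 passed in any comparison.

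**Figure D3:**
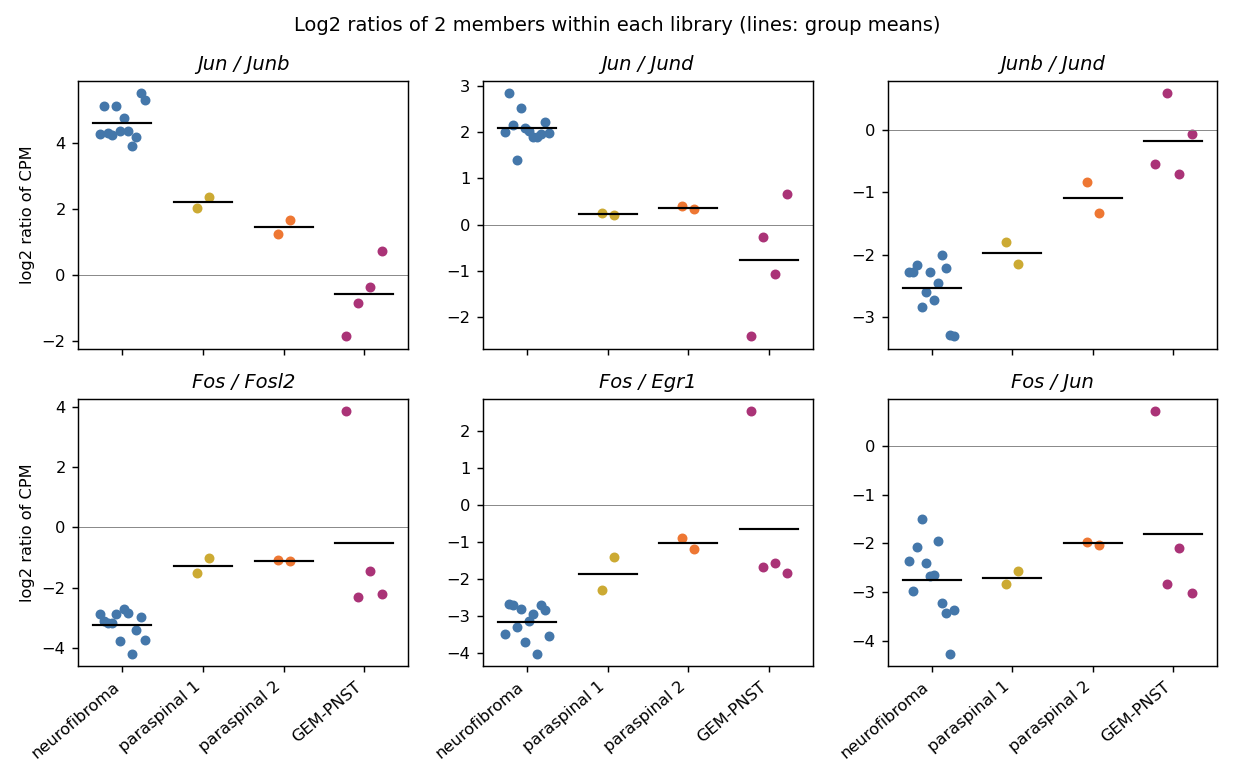
Log2 ratios of CPM of 2 members within each library, by group, with points for libraries and lines for group means. The ratio of Jun to Junb falls from a mean of 4.61 in neurofibroma to -0.59 in GEM-PNST without overlap, while the ratio of Fos to Jun overlaps between all stages.

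The members did not move together within GEM-PNST. Set against the paraspinal mean on the log2 scale, library 1 had Fos at 1.66, Junb at 2.29 and Jund at 1.30, but Fosl2 at -3.38, Egr3 at -2.69, Egr1 at -2.33 and Jun at -1.40. Library 2 had Fosl1 at 6.69, Fosb at 3.86 and Junb at 3.18 with Fos at 0.02 and Egr3 at -2.80. Library 4 had Fosl1 at 6.26 with Atf3 at -2.45 and Jund at -0.15. Library 3 stayed nearest to the paraspinal mean, with Fosl1 at 1.56 and Junb at 1.55 as its largest differences. Junb was above the paraspinal mean and Egr3 below it in 4 of 4 libraries, and no other member kept its sign in all 4. The share of all genes that kept their sign was not counted. Every GEM-PNST library lay above every paraspinal library for 10.7% of all genes, as for Junb, and below for 16.1%, as for Egr3. Library 1 also had the lowest endoneurial fibroblast marker sum of the GEM-PNST libraries, 125 CPM over 7 genes against 3080 to 15700 CPM in the other 3 and 4390 to 11800 CPM in paraspinal tumors. The part of that difference in its low Fosl2 and Egr1 was not tested.

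**Figure D4:**
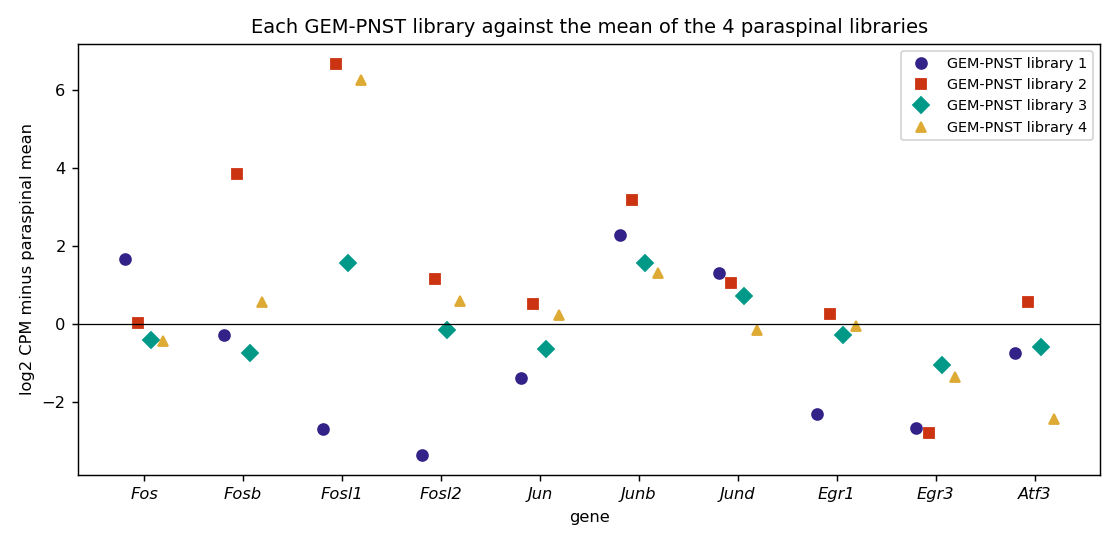
Log2 CPM of each member in the 4 GEM-PNST libraries minus the mean of the 4 paraspinal libraries (horizontal line at 0). Junb is above and Egr3 below the line in all 4 libraries, Fosl1 spreads from -2.71 to 6.69, and library 1 lies lowest for Fosl2, Jun and Egr1.

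The paraspinal subgroups were labelled as sub-clusters, a name that may rest on these same values, so their difference is a description as much as a test. In subgroup 2 both libraries exceeded both libraries of subgroup 1 for 8 of 10 members, against 34% of all genes in that direction. By edgeR 0 members and 0 genes passed an adjusted p under 0.05 (DESeq2 also gave 0 members, with 7.08% of all genes), and 0 members had an unadjusted p under 0.05 where 11.6% of all genes did. By limma-voom with sample weights 3 members passed, Fos at 0.99, Junb at 1.04 and Atf3 at 1.73 on the log2 scale, where 30.8% of all genes passed. Against neurofibroma, subgroup 1 alone had 3 members higher (Jun, Junb and Jund), with 43.9% of all genes passing (21.7% higher), and subgroup 2 alone had 7, with 59.1% passing (28.9% higher). GEM-PNST against subgroup 1 alone gave 0 of 10 members, with 6.6% of all genes passing, and against subgroup 2 alone 0 of 10, with 0.516% passing. Subgroup 2 libraries also had the higher macrophage marker sums, 1390 and 1140 CPM against 695 and 246 CPM in subgroup 1, and higher fibroblast marker sums, 11800 and 9200 CPM against 7450 and 4390 CPM. Their part in the subgroup difference was not tested.

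Neurofibroma itself offered a measure of how far these genes move without a change of stage. Between its 2 sequencing runs of 6 libraries, 0 members and 0 of all genes passed an adjusted p under 0.05 (edgeR). DESeq2 and limma-voom also gave 0 members, with 3.04% and 1.44% of all genes. An unadjusted p under 0.05 was reached by 2 members, Fos at -1.07 (run 2 minus run 1, log2, p = 0.0087) and Jun at -0.40 (p = 0.042), against 13.2% of all genes. All 10 members were lower in run 2 by fitted log2 fold change, from -0.12 for Atf3 to -1.49 for Fosl1, while the median over all genes was 0.05. The macrophage and fibroblast marker lists were also lower in run 2, with median log2 fold changes of -1.17 and -0.78 and 0 of 7 genes of each passing, and their part in the members' difference was not tested. Egr1 varied over neurofibroma from 19 CPM in library 11 to 206 CPM in library 1, and Fosl2 from 20.9 to 167 CPM in libraries 11 and 6.

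Over the 12 neurofibroma libraries, Fosl2, Egr1, Egr3, Junb and Jund went up and down together, Fos went with Fosl2, Egr1 and Egr3, and Atf3 followed none of them. Of 45 pairs of members, 16 passed an adjusted p under 0.05 for Pearson's r (permutation test). Pairs of other genes were not correlated, so this count has no share of all pairs beside it and shows nothing particular to these genes. The highest r was 0.94 for Fosl2 with Egr1 (Spearman's rho 0.90, adjusted p = 0.000675 for r and 0.00648 for rho, permutation test), with 0.83 within run 1, 0.94 within run 2 and 0.93 without the 2 libraries farthest from the median. Egr1 with Egr3 reached 0.91 (rho 0.87, adjusted p = 0.0009, permutation test), and 0.96 and 0.83 within the runs. Fos with Egr1 reached 0.90 (rho 0.83, adjusted p = 0.00146, permutation test), and 0.78 and 0.91 within the runs. Atf3 had r between -0.21 and 0.31 with the other 9 members and passed with none. Fos with Jun gave r = 0.53 (rho 0.41, adjusted p = 0.151, permutation test), with -0.16 in run 1 and 0.33 in run 2. With 6 libraries, 0 pairs passed within either run, and 3 pairs passed without the 2 farthest libraries.

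**Figure D5:**
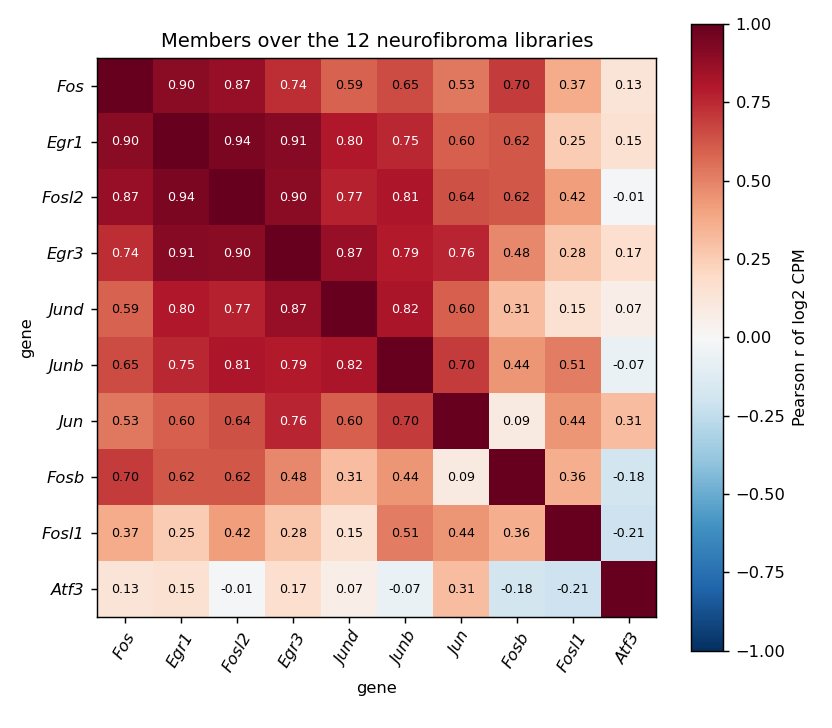
Pearson r of log2 CPM between each pair of members over the 12 neurofibroma libraries, with genes on both axes and color from -1 to 1. Fos, Egr1, Fosl2 and Egr3 form a block of r from 0.74 to 0.94, and the column of Atf3 stays between -0.21 and 0.31.

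Several members also varied with markers of other cell types in neurofibroma. Against the log2 summed level of 7 endoneurial fibroblast markers (1070 to 9360 CPM), Fosl2 had r = 0.95 (rho 0.97, adjusted p = 0.00045 over 90 relations, permutation test), Egr1 0.91, Fos 0.90, Egr3 0.80, Fosb 0.77 and Junb 0.75, so 6 of 10 members passed. Against 7 macrophage markers, Fosl2 had r = 0.97 (rho 0.95, adjusted p = 0.00045, permutation test), Egr1 0.90 and Fos 0.88, and again 6 of 10 passed. For Fosl2 these held within both runs, at 0.98 and 0.91 for fibroblast and 0.97 and 0.96 for macrophage markers, and at 0.91 and 0.94 without the 2 farthest libraries. In the opposite direction, 5 of 10 members passed with epithelial markers, with negative r from -0.76 for Egr1 to -0.87 for Egr3. In neurofibroma that sum was mostly Cdh1, with a mean of 194 CPM where the median sum was 218 CPM. Of its 6 genes 1 to 4 were at 0 in each library, so these r describe mainly 1 gene. Also negative were 2 that passed with mast cell markers, Jun at -0.91 and Egr3 at -0.76. With sensory neuron, Schwann cell, T and NK cell, endothelial and muscle markers 0 of 10 passed for r. The rho with neuron markers passed for Fosl2 at -0.87 (adjusted p = 0.006, permutation test) and Egr1 at -0.83 (adjusted p = 0.0111, permutation test). No other genes were set against these marker sums, so these counts have no share of all genes beside them. Nothing particular to the members is read from them. Whether the members follow the number of such cells was not tested.

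Other genes of the pathway were taken from lists, whose counts stand against the shares of all genes above: 58.6% passed for paraspinal tumors and 72.8% for GEM-PNST against neurofibroma, and 10.2% between the later stages. Nothing particular to a list is read from its count. Of 17 other bZIP partners, 8 were higher and 4 lower in paraspinal tumors than in neurofibroma, with a median log2 fold change of 1.10. Cebpd, an acute phase factor, rose by 2.69 (SE 0.45), Jdp2, a JUN-binding repressor, by 2.02 (SE 0.21), and Ddit3, the unfolded protein response factor CHOP, by 1.95 (SE 0.20), whereas Atf2, a kinase-activated partner of Jun, fell by 2.34 (SE 0.16). In GEM-PNST against neurofibroma 10 were higher and 3 lower, among them Jdp2 at 3.60 and Atf7, a relative of Atf2, at -3.56. Between paraspinal tumors and GEM-PNST 0 of 17 passed, and the most abundant of them, Atf4 and Cebpd, differed by 0.52 and 1.34.

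Of 29 other immediate early genes tested, 14 were higher and 2 lower in paraspinal tumors, 21 higher and 3 lower in GEM-PNST, each against neurofibroma, and 4 higher and 0 lower in GEM-PNST against paraspinal tumors. The median log2 fold changes were 0.73, 1.90 and 1.06. Nfkbia, the NF-kB inhibitor and NF-kB target, rose by 3.08 (SE 0.26) in paraspinal tumors and by 4.43 (SE 0.29) in GEM-PNST, and Socs3, a target of STAT3, by 3.03 (SE 0.46) and 4.34 (SE 0.66). The 4 that rose from paraspinal tumors to GEM-PNST were the zinc finger gene Klf4 (2.54, SE 0.54), Ier5 (2.18, SE 0.36), Myc (1.95, SE 0.47) and Ier2 (1.66, SE 0.39), with adjusted p from 0.0103 for Ier5 to 0.0385 for Myc (edgeR). All 4 had every GEM-PNST library above every paraspinal library, as for 10.7% of all genes. Egr2, the myelination factor of Schwann cells, fell by 3.32 (SE 0.73) from neurofibroma to GEM-PNST, from a mean of 83.7 to 8.35 CPM.

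Upstream, of 9 genes for SRF, its cofactors and the EGR corepressors, 2 were higher and 4 lower in paraspinal tumors and 4 higher and 5 lower in GEM-PNST than in neurofibroma, with 0 passing between the later stages. Srf rose by 1.37 (SE 0.16) and 2.21 (SE 0.19), and Nab2, an EGR corepressor that EGR factors induce, by 2.30 (SE 0.31) in GEM-PNST. Elk4, an SRF partner, fell by 3.32 (SE 0.47) and fell by 4.07 (SE 0.50). Of 15 MAP kinase pathway genes, which passed about as often as all genes, 5 were higher and 3 lower in paraspinal tumors and 4 higher and 7 lower in GEM-PNST. These included Map2k2, the kinase MEK2, at 2.61 and 3.28, and Mapk10, the neuronal JNK, at -8.17 in GEM-PNST. Mapk8ip1, a JNK scaffold expressed in neurons, rose by 1.60 (SE 0.33) in paraspinal tumors and differed by -3.92 (SE 0.80) between these and GEM-PNST, where sensory neuron markers were also low.

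Of 18 classical AP-1 targets, 7 were higher and 1 lower in paraspinal tumors and 13 higher and 0 lower in GEM-PNST than in neurofibroma, with medians of 0.90 and 2.85. Timp1, a protease inhibitor, rose by 4.27 (SE 0.87) and 3.81 (SE 0.83), and Tgfb1 by 2.85 (SE 0.44) and 4.84 (SE 0.51). Plau, the urokinase gene, was the 1 target that passed between paraspinal tumors and GEM-PNST, at 3.29 (SE 0.79, adjusted p = 0.0391, edgeR), with means of 20.6 and 201 CPM. Of 13 heat shock genes, which also respond to handling, 2 were higher and 4 lower in each later stage against neurofibroma. Their summed levels were 2320 to 8360 CPM in neurofibroma, 2960 to 4330 CPM in paraspinal tumors and 2970 to 4170 CPM in GEM-PNST, so the ranges overlapped. Hsp90aa1, a chaperone, fell by 1.08 (SE 0.40) in paraspinal tumors and fell by 2.37 (SE 0.43) in GEM-PNST, while Hspb1 rose by 1.27 (SE 0.38) in paraspinal tumors.

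Over all 20 libraries with group means removed, the genes most like each member differed between members. For Fosl2 they were Tmem119 and Igsf10 with r = 0.98 and Creb3l2 with r = 0.97, and for Egr1 they were Trim8 (0.97), Elk3 (0.95) and Cnksr3 (0.94). Elk3 is itself a partner of SRF. For Fos they were Tgfbi (0.93), Iqgap1 and Rab32 (both 0.91), for Egr3 Skil, Meox1 and Col8a1 (0.90 to 0.92), and for Fosl1 Steap2, Ociad2 and Peg10 (all 0.93). Jun was most like Gemin5 (0.93) and Midn, Fosb most like Pvr (0.92), Cdk4 and Sf3b3, and Junb most like Khsrp (0.88), H2afj and Ssbp4. Jund reached 0.86 with Bzw2 and Atf3 0.85 with Wbp1. No gene was on the lists of 2 members. These values are the highest among 10494 genes, over 20 libraries that share depth and group structure. Spread within groups was not equalized, so the groups that vary most weigh most. For Fosl1, GEM-PNST ran from 0.0672 to 129 CPM and neurofibroma from 0 to 0.341 CPM.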

How the data were processed

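Whole-number read counts for each gene were deposited by the authors, from total RNA (RNeasy Plus Micro Kit, Nextera XT libraries, per the labels) and the mouse build mm10. The submitters' processing notes name TopHat, HISAT2 and featureCounts without versions or roles. The annotation and strand setting are not given in the sources used here. Libraries were matched to groups through the deposited sample table, and the first part of its alignment file names was taken as the sequencing run. Neurofibroma libraries 8 and 9 carry codes that differ only in a letter, as do the codes of the subgroup 2 libraries. Codes of subgroup 1 library 1 and GEM-PNST library 2 are alike except for letters and case. Whether such libraries share an animal is not labelled, and the tests treat them as independent. Of 74 pairs of libraries within groups, none agreed within sampling noise (lowest chi-square per degree of freedom 22.63).

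Genes passing edgeR's filterByExpr over all 20 libraries and 4 groups went into edgeR 4.0.16 (R 4.3.3, quasi-likelihood F tests, TMM over 20 libraries, Benjamini-Hochberg adjustment, threshold 0.05), using only the libraries of the stages compared. The subgroup fit also held the GEM-PNST libraries. The SE is the log2 fold change divided by the root of F. A prior count of 2 was used for log2 CPM. The tested genes held 95.83% to 99.98% of each library's counts. limma 3.58.1 and DESeq2 1.42.0 served as alternatives, and the tests were tried on simulated counts. Permutation tests used all splits, or 100000 resamples for correlations over 12 libraries. Gene positions, lengths and GC content come from GENCODE's annotation of GRCm38, and promoter windows from RefSeq.

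Named are all 10 members, from each list up to 4 genes per comparison with the largest fold change that passed and had mean log2 CPM of 3 or more (otherwise the 2 most abundant), and the 3 genes most like each member, of which 1 is not reported here. The members and lists were chosen with earlier results of these data known.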

Additional observations from a re-analysis of the deposited data

Results flagged for a closer look

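In 40 groups of 4 or 6 libraries of a member, the highest or lowest library was compared with the rest by Dixon's test, and 7 stood apart, where chance gives about 1 in 20. Fos was 99.0 CPM in GEM-PNST library 1, against 23.1 to 31.9 CPM in the other 3. Fosb was 42.6 CPM in GEM-PNST library 2, against 1.63 to 4.26 CPM in the other 3. In the paraspinal group Fosb was 6.23 CPM in subgroup 2 library 1, against 2.03 to 2.35 CPM. In the second neurofibroma run, library 9 was the highest for 3 members: Jun at 81.1 CPM against 41.4 to 55.8, Junb at 5.33 CPM against 1.03 to 2.56, and Egr3 at 50.9 CPM against 6.55 to 15.8. In the same run Fosl1 was 0.201 CPM in library 10, against 0 to 0.0753 CPM, a level below the 0.302 CPM that 3 counts make up in that library.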

How the results depend on the processing

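Junb and Jund were higher than in neurofibroma, past the threshold, in both later stages under every alternative run. The 7 members called in paraspinal tumors against neurofibroma became 3 with subgroup 1 alone. The member called in GEM-PNST against paraspinal tumors became 3 with DESeq2 (Junb, Fosl1 and Egr3) and 5 with all 20 libraries in 1 fit, where 27.6% and 41.7% of all genes passed in place of 10.2%. It became 0 with either subgroup alone, 2 without GEM-PNST libraries 1 and 3 and 0 without libraries 1 and 2, 2 after removal of the length and GC trend, and 0 to 2 with single libraries left out. Between the subgroups 0 became 3 with limma-voom, with 30.8% of all genes passing. Of the 16 pairs correlated in neurofibroma, 0 passed within run 1, 0 within run 2 and 3 without the 2 farthest libraries.

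Removing the length and GC trend moved the median log2 fold change of all genes from 0.03 to 0.42 between the later stages, and from -0.15 to 0.30 for GEM-PNST against neurofibroma. The higher share of all genes passing went from 26.9% to 55.9% and from 47.9% to 59.1%, and in the fit of all 20 libraries and with DESeq2 it was 54% and 41.7% between the later stages.

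Same-numbered libraries of different groups were not treated as paired (14 pairs, r of deviations -0.24 to 0.17, 5 over 0.1). In a subgroup of 2 libraries the deviations mirror each other, so these r cannot show whether libraries are paired. With a replicate block the members called were 2 for paraspinal tumors and 3 for GEM-PNST against neurofibroma, and 1 between them, while 16.3%, 42.5% and 5.5% of all genes passed. Between the later stages the block called Egr3 (-2.80, adjusted p = 0.0466, edgeR) in place of Junb (2.70, adjusted p = 0.0538).

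No difference whose sign turned passed the threshold as reported. For paraspinal tumors against neurofibroma, Egr3 (0.01) was -0.15 with RLE factors, -0.09 with DESeq2, -0.03 without Rn45s and Malat1, -0.02 in the fit of all libraries, -0.22 with the block, -0.30 with subgroup 2 alone, -0.30 without subgroup 1 library 1, -0.05 without neurofibroma library 8, -0.39 with run 1 alone and -0.27 with the trend removed. With run 2 alone Fosl2 was 0.01 and Egr1 0.32. For GEM-PNST against paraspinal tumors, Fos was -0.21 with limma-voom, -0.34 without GEM-PNST library 1, -0.27 without 1 and 3 and -0.51 without 1 and 2. Jun was 0.09 without library 1 and 0.36 without 1 and 3, where Egr1 was 0.08. Fosb was -0.22 without library 2 and -0.11 without 1 and 2. Fosl2 was -0.46 with the block, -0.17 with subgroup 2 alone and -0.33 without library 2, and Atf3 was 0.40 with subgroup 1 alone. For GEM-PNST against neurofibroma, Atf3 was -0.04 with limma-voom, and Fosl2 was 0.11 without library 1, 0.38 without 1 and 3, 0.19 with run 2 alone and 0.26 with the trend removed. Between subgroups, Egr3 was 0 without subgroup 1 library 1, Egr1 -0.22 without subgroup 1 library 2 and Jund -0.25 with the trend removed. Of the log2 ratios, Fos to Fosb was 0.43 and 0.68 without library 2 (against paraspinal tumors and neurofibroma), Fos to Fosl2 -0.80, Fos to Jun -0.30 and Fos to Egr1 -0.25 without library 1, and Jun to Atf3 -0.25 and -0.08 without library 4. The r of Fos with Jun was -0.16 in run 1, and that of Fos with Atf3 -0.07 in run 2 and -0.20 without the 2 farthest libraries. With single libraries left out, the opposite ends of these ranges were 0.63 for Fos, 2.55 for Fosb, 0.57 for Fosl2 and -0.47 for Jun between the later stages, -0.79 for Fosl2 in GEM-PNST against neurofibroma, and 0.56 for Egr1 and -0.95 for Egr3 between subgroups. For the ratios between the later stages they were -1.5 for Fos to Fosb, 1.25 for Fos to Fosl2, 0.94 for Fos to Jun, 1.21 for Fos to Egr1 and 0.85 for Jun to Atf3, and against neurofibroma -1.25 for Fos to Fosb and 1.03 for Jun to Atf3. The causes were not tested. The trend removal, the exclusion of GEM-PNST libraries 1 and 2 together and the ratios without single GEM-PNST libraries were chosen after seeing the data. Depth limits Fosl1 in neurofibroma, at 0 to 5 counts per library.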
